A study of Mus musculus with 30 samples.

Results

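The comparison described here is that of foregut endoderm from mouse embryos at E8.25 with undifferentiated mouse embryonic stem (ES) cells. Its members are the 3 foregut arrays and the 3 day 0 ES arrays whose titles mark the RNA as amplified, 6 of the 30 arrays of the series. The foregut cells came from Swiss webster embryos, were sorted as ENDM1 positive, Epcam positive and low in side scatter, and their RNA was extracted with RNeasy Micro. The ES cells were of C57BL/6x129SvJae background, were sorted at day 0 as Sox2 bright, and their RNA was extracted with miRNeasy Mini. Each group had 3 arrays, which the labels call biological replicates. Further groups served to place the difference. The 3 day 5 arrays came from the same ES background after differentiation, sorted as Kit positive and Sox2 dim. The 3 comparator arrays came from Swiss webster E8.25 embryos, sorted as Epcam positive and ENDM1 negative. RNA of all 12 of these arrays was amplified with the WT-Ovation Pico system before hybridisation to Affymetrix Mouse Gene 1.0 ST arrays. Unamplified ES arrays, 3 at day 0 and 3 at day 5, gave the day 5 response a second time on arrays that the foregut comparison does not use.

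ES cells are derived from the inner cell mass and keep the capacity to form all embryonic lineages through a transcription factor network centred on Pou5f1, Nanog and Sox2. Definitive endoderm arises during gastrulation under Nodal signalling and is marked by Sox17, Foxa2 and Cxcr4. Its anterior part folds into the foregut, from which the thyroid, lung, liver and pancreas bud, and visceral endoderm cells of extraembryonic origin are known to contribute to the gut tube. Embryo and culture samples differed at once in mouse strain, extraction kit, growth in vivo or in vitro and sorting gate, and these cannot be told apart in any difference between foregut and ES cells. Foregut and ENDM1-negative cells share strain, kit and embryo stage. In sorted populations measured in bulk, fewer cells of a type and less RNA per cell cannot be told apart.

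Values are log2 expression levels per gene, and differences are log2 differences from limma with their standard error (SE) after ±. Calls were made where the p-value, adjusted by Benjamini and Hochberg's method across the 19938 genes tested, was under 0.05. Between foregut and day 0 ES cells 6474 genes were called (32.5% of those tested), 3637 higher in foregut (18.2%) and 2837 lower (14.2%). Counts for gene lists given below are to be read beside these shares of all genes. For the other comparisons on amplified arrays, 13% of all genes were higher and 13.8% lower at day 5 than at day 0. In foregut 14.7% were higher and 9.42% lower than at day 5, and 3.71% and 4.43% against ENDM1-negative cells. The median difference over all genes between foregut and day 0 was 0.055. When all arrays were shifted to a common median, this median became -0.0117 and the calls split into 2867 higher and 3450 lower, so the balance of directions depends on scaling. Calls with at least a 4-fold difference numbered 143 higher (0.717%) and 145 lower (0.727%), and calls with at least a 2-fold difference were 1300 (6.52%). The 3 foregut and 3 day 0 arrays did not overlap in 46.7% of all genes, and in 32% they did not overlap and the gene was called. Median levels per amplified array lay between 5.69 and 5.74 over all probe sets. Over the genes tested they were 5.954, 5.884 and 5.944 in foregut and 5.841, 5.876 and 5.865 at day 0. Arrays of a group correlated at 0.988 to 0.995 across genes, the lowest value belonging to day 5 replicate 1. That array stands apart from the other day 5 arrays in several endoderm genes, and values without it are given for some of the genes where they differ. Gata4, Hnf4a and Krt18 were called higher in foregut than at day 5 without it, but not with all arrays.

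The labelled identities were checked against marker genes. Pou5f1, the octamer-binding factor required for pluripotency, measured 10.45, 10.23 and 10.31 on the 3 day 0 arrays and 5.74, 5.28 and 5.93 on the 3 foregut arrays. Of 19 definitive endoderm genes measured, 16 rose and 1 fell in foregut against day 0, with a median difference of 1.46. Against ENDM1-negative cells 15 of the 19 were higher in foregut and none lower, where 3.71% of all genes were higher. Genes of the posterior embryo and of the yolk sac were also measured in foregut, with Cdx4 at a mean of 6.23 and Afp at 7.86, against 3.43 and 4.17 at day 0.

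Among genes with established names, Ttr, Spink1 and Nepn had the largest rises in foregut. Ttr, which encodes the thyroid hormone carrier transthyretin, measured 4.94, 4.99 and 5.24 in day 0 cells and 11.51, 11.90 and 11.15 in foregut. The foregut arrays lay far above the day 0 arrays, and the difference was 6.46 ± 0.31 (adjusted p = 8.22e-09, limma). Spink1, a secreted inhibitor of trypsin, measured 6.60, 6.83 and 6.38 against 11.86, 11.94 and 11.56, a difference of 5.18 ± 0.17 (limma adjusted p = 2.79e-10). Nepn, which encodes the extracellular matrix proteoglycan nephrocan, measured 4.49, 4.29 and 4.62 against 9.53, 9.92 and 9.48, a difference of 5.18 ± 0.21 (limma adjusted p = 2.29e-09). In none of these genes did the groups overlap. The next largest rises were those of Clic6, Cpm, Tmprss2, Capn6, Rbp4, Tspan12, Rasgrp3, Igfbp5 and Car4, between 5.16 for Clic6, a chloride channel protein, and 4.32 for Car4, a membrane-bound carbonic anhydrase. Rbp4, the plasma carrier of retinol, rose by 4.44 ± 0.29, and Igfbp5, which binds insulin-like growth factors, by 4.34 ± 0.22.

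Tdgf1, Dppa5a and Kcnma1 had the largest falls among such genes. Tdgf1, the Nodal co-receptor also known as Cripto, measured 12.35, 12.38 and 12.28 in day 0 cells and 6.06, 5.25 and 4.86 in foregut. It fell by 6.95 ± 0.41 (adjusted p = 5.86e-08, limma), the largest difference of any named gene in either direction. Dppa5a, an RNA-binding protein of early embryo and ES cells, measured 12.21, 12.28 and 12.43 against 6.28, 6.01 and 5.46 and fell by 6.39 ± 0.27 (limma adjusted p = 2.96e-09). Kcnma1, a large-conductance potassium channel, measured 10.56, 10.47 and 10.57 against 4.11, 4.85 and 3.60 and fell by 6.35 ± 0.28 (limma adjusted p = 4.03e-09). All foregut arrays lay below all day 0 arrays in each of these genes. Zfp640, Fbxo15, Lncenc1, Tdrd12, Dppa3, Zfp980, Lrrc34 and Zfp42 followed, with falls between 6.10 for Zfp640 and 4.79 for Zfp42, which encodes the zinc finger protein Rex1. Fbxo15, a target of Pou5f1 in ES cells, fell by 5.76 ± 0.21, and Dppa3, a maternal factor that protects methylation in the zygote, fell by 5.21 ± 0.14.

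**Figure D1:**
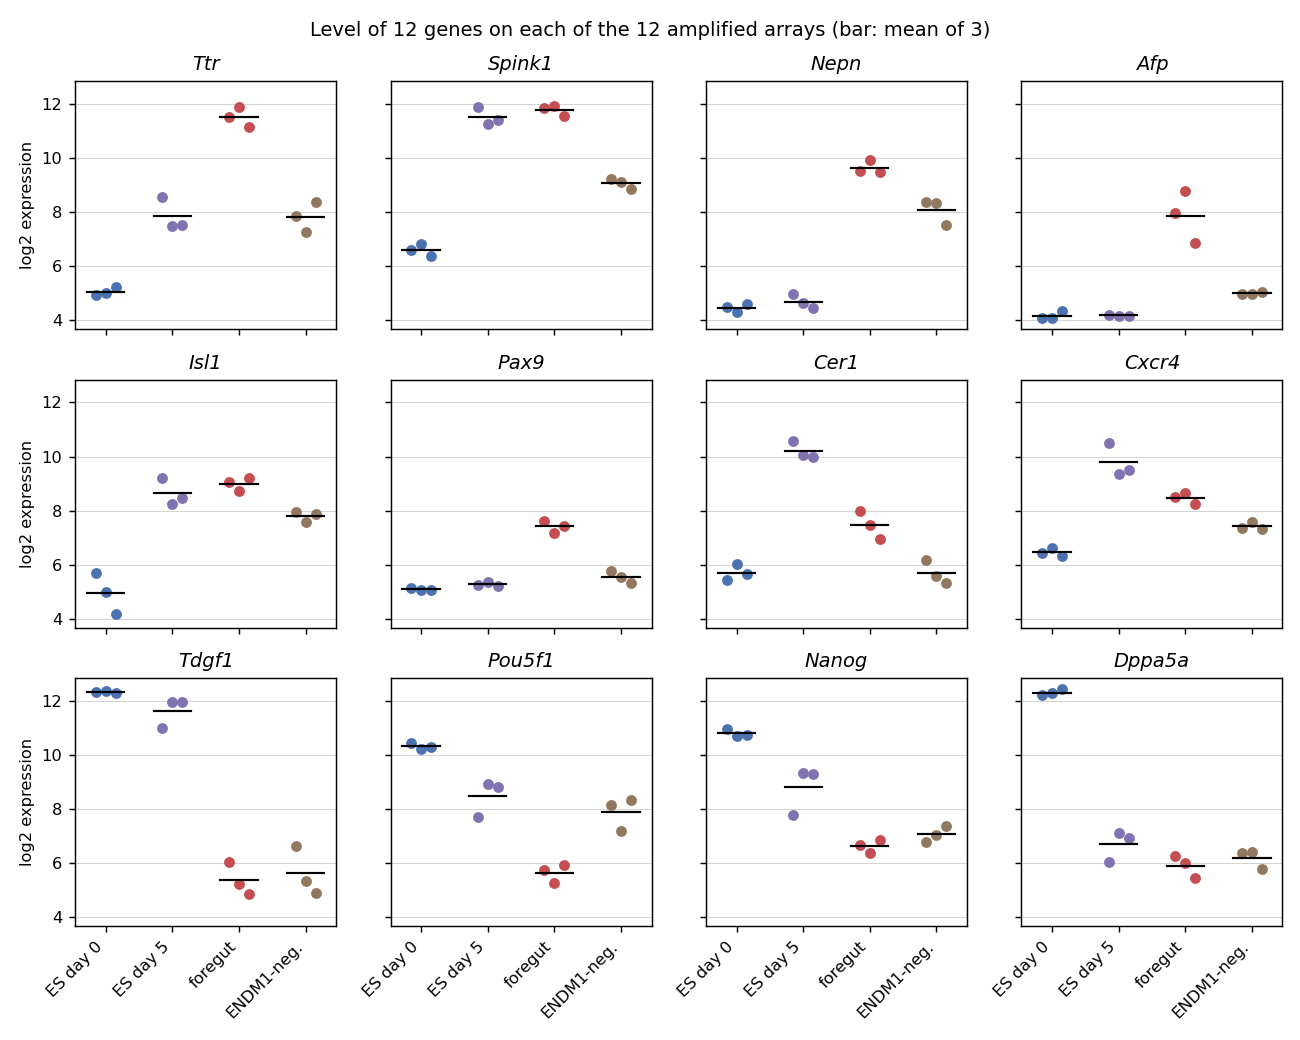
Log2 expression of 12 genes on each amplified array of day 0 ES cells, day 5 ES cells, E8.25 foregut and ENDM1-negative embryo cells; points are arrays and the bar is the mean of 3. Ttr, Nepn and Afp are highest in foregut, Cer1 and Cxcr4 are highest at day 5, and Tdgf1 stays near its day 0 level at day 5 (means of 12.33 and 11.64) while foregut averages 5.39.

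To express how far day 5 cells had moved, the difference between day 5 and day 0 was divided by the difference between foregut and day 0 and given as a percentage, the distance covered. A value of 0 means the day 0 level and 100 the foregut level. The value was taken over the genes called with at least a 4-fold difference, so the same foregut and day 0 arrays both chose the genes and set the scale. It is given as a description. Both differences share the day 0 arrays. Sorting of the ES cells used Sox2, with a different gate at each day. Sox2 is itself among the genes at least 4-fold lower in foregut, with 92.6% covered. The percentages therefore describe the sorted cells and not the culture as a whole. What the gates contributed to them was not tested. Over the 143 genes higher in foregut the median distance covered was 66.2%, with quartiles of 30.8% and 87.6%. The 3 day 5 arrays taken singly gave medians of 78.9%, 53.9% and 59.1% (SD 13.2, n = 3), and without replicate 1 the median was 55.8%. Over the 145 genes lower in foregut the median was 85.8%, with quartiles of 50.6% and 102%. The single arrays gave 91.3%, 83.5% and 83.0% (SD 4.66, n = 3). The lower genes are not only those of pluripotency. They include 12 core and naive pluripotency genes, with a median of 91.0% covered, and 4 fibroblast markers, with 99.4%. The median level of the genes higher in foregut was 5.54 at day 0, 7.61 at day 5 and 8.53 in foregut, and that of the genes lower in foregut was 8.29, 5.62 and 5.25.

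The medians hide a wide spread. Of the 143 genes higher in foregut, 23 had covered under 10% of the distance, 32 between 10% and 50%, 55 between 50% and 90%, 22 between 90% and 110% and 11 more than that. Of the 145 lower genes the same bands held 8, 26, 47, 46 and 18. Foregut and day 5 cells were also compared directly, on the same foregut arrays. There 4817 genes were called (24.2%), 2939 higher in foregut (14.7%) and 1878 lower (9.42%). The share of these calls that were higher in foregut was 61%, and 45.1% on a common median, so this balance too depends on scaling. Of the 143 genes, 96 (67.1%) were still higher in foregut than at day 5, 41 were not called and 6 had passed the foregut level. Of the 145, 66 (45.5%) were still lower in foregut, 71 were not called and 8 had passed it. Genes just inside the 4-fold limit were Cxcr4 and Hmgn3, both at 2.01, and genes just outside were Fzd2 and Adam10, both at 1.99.

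**Figure D2:**
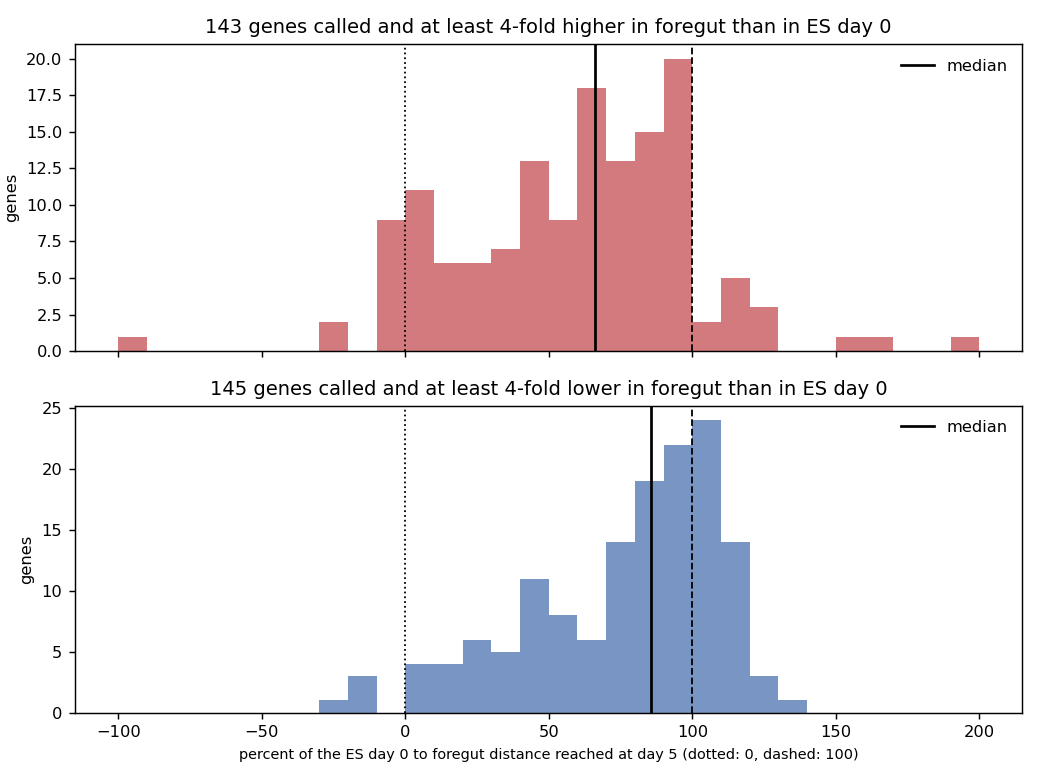
Distribution of the distance from day 0 to foregut that day 5 ES cells had covered, in percent, for 143 genes at least 4-fold higher and 145 at least 4-fold lower in foregut; the vertical axis counts genes, the dotted line is the day 0 level, the dashed line the foregut level and the solid line the median. The medians are 66.2% and 85.8%, and 23 of the higher genes have covered under 10%.

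The unamplified arrays gave the day 5 response on samples that entered neither foregut comparison. On them 7689 genes were called between day 5 and day 0 (38.6%), 3765 higher (18.9%) and 3924 lower (19.7%). Of the 143 genes higher in foregut, 112 (78.3%) rose, 2 fell and 29 were not called. Of the 145 lower genes, 132 (91%) fell, 1 rose and 12 were not called. Set against the same foregut distance, the unamplified response gave medians of 65.7% and 77.6%. The amplified day 5 arrays had 5354 genes called against day 0 (26.9%), 2596 higher (13%) and 2758 lower (13.8%).

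**Figure D3:**
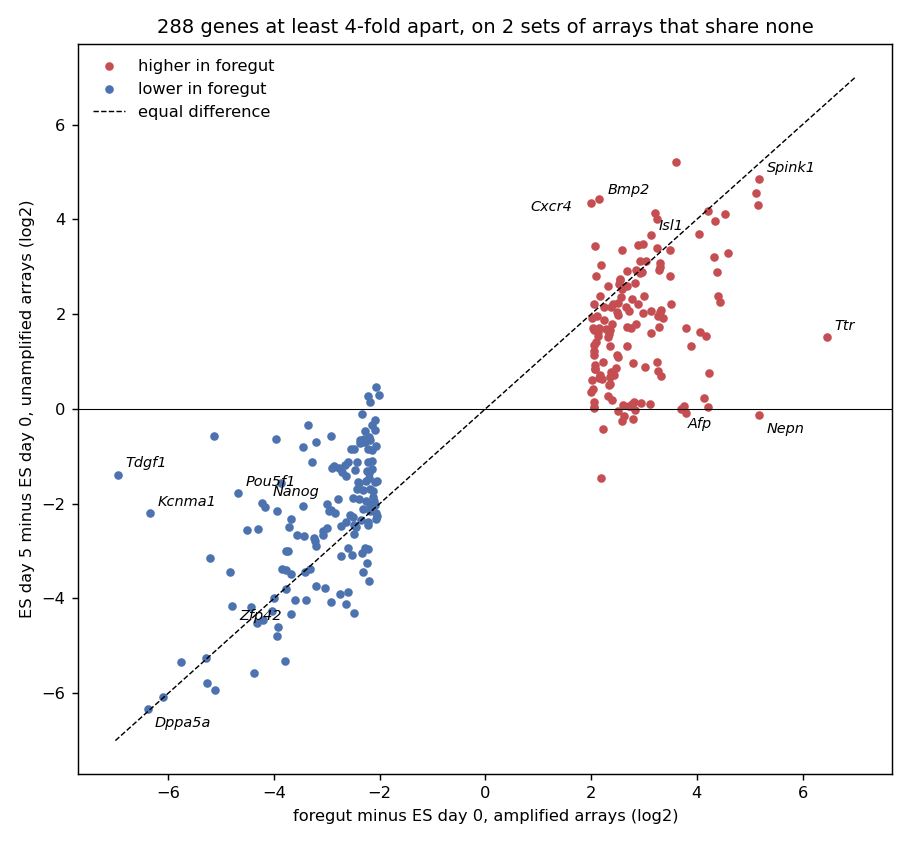
For each gene called at least 4-fold apart, the log2 difference of foregut from day 0 on amplified arrays (horizontal) and of day 5 from day 0 on unamplified arrays (vertical); the dashed line marks equal differences. Most genes lie on the foregut side of 0 on both axes (112 of 143 higher and 132 of 145 lower genes were called in the same direction), while Nepn and Afp are among those near 0 on the vertical axis and Tdgf1 lies far from the dashed line.

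ENDM1-negative embryo cells were placed on the same axis. Their medians were 67.6% for the higher genes and 87.4% for the lower genes, beside 66.2% and 85.8% for day 5 cells. Foregut differed from them in 1623 genes (8.14%), 740 higher in foregut (3.71%) and 883 lower (4.43%), a total that was 985 without foregut replicate 1 and 1069 without ENDM1-negative replicate 1. Of the 143 genes higher in foregut than in ES cells, 93 (65%) were also higher in foregut than in ENDM1-negative cells. Of the 145 lower genes, 44 (30.3%) were also lower. The comparison of foregut with either group uses the same foregut arrays. Over the 93 genes, day 5 cells had covered a median of 64.8%, and over the other 50 genes 72.6%. The ENDM1-negative medians of these subsets, 54.0% and 90.3%, follow from how the subsets were chosen.

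Among transcription factors and signalling genes that define endoderm, several stood at or beyond the foregut level at day 5. Sox17, a factor required for endoderm formation, averaged 5.03 at day 0, 6.75 at day 5 and 6.78 in foregut, and rose by 1.75 ± 0.34 in foregut (limma adjusted p = 0.00143). Its day 5 arrays read 7.90, 6.24 and 6.10, with replicate 1 above all foregut arrays and the others below them. Foregut and day 5 were not called apart (adjusted p = 0.958), but were without day 5 replicate 1 (limma adjusted p = 0.00373). Foxa2, a pioneer factor of endoderm, averaged 5.83, 7.83 and 7.30 in the same order, and rose by 1.46 ± 0.15. Its fall from day 5 to foregut, of 0.54 (limma adjusted p = 0.0203), was lost without day 5 replicate 1 or without foregut replicate 2. Hhex, an early marker of the anterior endoderm, averaged 7.33, 9.86 and 9.17 and rose by 1.85 ± 0.28 in foregut.

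Cer1 and Cxcr4 overshot. Cer1, which encodes the secreted antagonist Cerberus, measured 5.43, 6.03 and 5.66 at day 0, 10.58, 10.07 and 9.99 at day 5 and 7.97, 7.47 and 6.97 in foregut. The 3 groups did not overlap, and foregut was 1.76 ± 0.26 above day 0 (adjusted p = 0.000187, limma) but lower than day 5 by 2.75 (limma adjusted p = 1.64e-05). Cxcr4, a chemokine receptor used to sort definitive endoderm, measured 6.42, 6.62 and 6.33 at day 0, 10.51, 9.36 and 9.49 at day 5 and 8.51, 8.64 and 8.23 in foregut, so that 166% of the distance was covered. Lhx1, a factor of the streak and anterior endoderm, averaged 4.78 at day 0, 7.93 at day 5 and 4.92 in foregut. In the definitive endoderm list as a whole, 6 genes were higher and 3 lower in foregut than at day 5, counts that became 14 and 2 without day 5 replicate 1. Its mean level per array lay at 6.17 to 6.25 at day 0, 7.28 to 8.16 at day 5, 8.03 to 8.20 in foregut and 6.75 to 6.90 in ENDM1-negative cells. Primitive streak genes were divided, with 4 of 16 higher and 4 lower in foregut than at day 0 (median 0.15), and 8 of the 16 lower in foregut than at day 5. Epiblast genes gave 4 higher and 4 lower of 11 (median -0.09). Over all genes, 18.2% were higher and 14.2% lower in foregut than at day 0, and 9.42% were lower than at day 5.

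Genes of regional foregut identity rose in foregut by smaller steps. Of 28 foregut regional transcription factors 18 rose and 1 fell against day 0 (median 0.41), and 15 rose when arrays were shifted to a common median. Day 5 cells had 6 of the 28 higher and 1 lower than day 0, where 13% and 13.8% of all genes were. In foregut 12 of the 28 were higher than at day 5, with none lower, where 14.7% and 9.42% of all genes were. Against ENDM1-negative cells 7 of the 28 were higher in foregut and 1 lower, and 4 were higher without foregut replicate 1 or 2. There 3.71% of all genes were higher and 4.43% lower. Mean levels of the list per array were 5.682 to 5.767 at day 0, 6.395 to 6.474 in foregut and 6.133 to 6.233 in ENDM1-negative cells. Isl1, a LIM homeodomain factor of pharyngeal endoderm, measured 5.70, 4.99 and 4.19 at day 0 and 9.05, 8.72 and 9.20 in foregut, with a mean of 8.64 at day 5. It rose by 4.03 ± 0.32 in foregut (limma adjusted p = 7.43e-07), was not called between foregut and day 5 (limma adjusted p = 0.452), and 91.3% of the distance was covered. ENDM1-negative cells stood at 70.8% of the same distance. Isl1 was 1.18 higher in foregut than in them (limma adjusted p = 0.0376), a call lost with any 1 array of either group left out. Pax9, a paired box factor of the pharyngeal pouches, measured 5.15, 5.05 and 5.07 at day 0, 5.24, 5.37 and 5.23 at day 5 and 7.62, 7.18 and 7.45 in foregut. It rose by 2.33 ± 0.12 in foregut (adjusted p = 2.4e-08, limma), was also higher there than in ENDM1-negative cells by 1.87 (limma adjusted p = 2.48e-06), and only 8.14% of the distance was covered at day 5.

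The other regulators named for this tissue changed less. Gata4 rose by 1.03 ± 0.16 and Gata6 from a mean of 5.98 to 7.48 (both called, and both zinc finger factors of endoderm and heart), and day 5 cells had covered 114% of the distance for Gata6. Hnf4a, a nuclear receptor of liver and visceral endoderm, was 0.63 higher (limma adjusted p = 0.0123). That call was lost without foregut replicate 1 or 2 and with all 30 arrays in 1 fit. Nkx2-1, which marks the thyroid and lung fields, differed by 0.19 and was not called (limma adjusted p = 0.227). Nkx2-3 and Nkx2-5 were higher by 0.39 and 0.27. Both calls were lost on a common median and without day 0 replicate 1 or 2 or foregut replicate 1 or 3. The Nkx2-3 call was also lost with all 30 arrays in 1 fit. That of Nkx2-5 was also lost after a further quantile normalization and without day 0 replicate 3. Shh, the hedgehog ligand of gut epithelium, rose by 0.83 ± 0.12 in foregut. Pyy, a gut peptide hormone, measured 6.30, 6.36 and 6.65 at day 0, 9.30, 6.98 and 7.59 at day 5 and 9.84, 10.07 and 9.90 in foregut, and rose by 3.50 ± 0.44. Trh, the gene of thyrotropin-releasing hormone, averaged 10.40 at day 0 and 10.36 in foregut, which was not called (limma adjusted p = 0.709), and 7.81 in ENDM1-negative cells.

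Genes known from the visceral endoderm and yolk sac were high in foregut, and on amplified arrays most were near their day 0 level at day 5. Of 17 measured, 15 rose in foregut and none fell, with a median difference of 1.98, and 8 of them rose at least 4-fold. Day 5 cells had 3 higher than day 0, and 15 of the 17 were higher in foregut than at day 5. The median distance covered over the 8 genes was 14.3%, but they were divided. Rbp4, Ttr, Apoa1 and Apob had covered 62.1%, 43.3%, 43.2% and 26.45%. Dab2, Afp, Apom and Cubn had covered 2.06%, 0.305%, -0.792% and -1.71%. On unamplified arrays 7 of the 17 were higher at day 5 than at day 0 and 1 was lower. There 18.9% of all genes were higher and 19.7% lower. Mean levels of the list per array were 5.12 to 5.26 at day 0, 5.53 to 5.96 at day 5, 7.01 to 8.10 in foregut and 5.66 to 6.07 in ENDM1-negative cells. Foregut replicate 2 was the highest, and without it 14 genes were called with a median of 1.76.

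Afp, the fetal serum protein alpha-fetoprotein, measured 4.09, 4.08 and 4.33 at day 0, 4.20, 4.16 and 4.17 at day 5 and 7.96, 8.77 and 6.84 in foregut. It rose by 3.69 ± 0.32 (limma adjusted p = 1.97e-06), and the distance covered at day 5 was 0.305%. Cubn, the endocytic receptor cubilin, measured 7.34, 8.85 and 6.17 in foregut and 4.24 to 4.37 at day 5. Its foregut arrays spread widely, in the same order as those of Afp, and all lay above the ES arrays. Dab2, an adaptor of endocytosis, rose by 2.95 ± 0.21 with 2.06% covered, and Alb and Amn were not called. The part that visceral endoderm cells in the sort played in these values was not tested.

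Further genes that day 5 cells had not approached were chosen by the size of the foregut difference among those with under 10% covered. Nepn stood at 4.96, 4.63 and 4.47 at day 5, which overlapped day 0, and had covered 4.32%. Dpp4, a membrane dipeptidase, averaged 5.28 at day 0, 5.38 at day 5 and 9.41 in foregut, and S100g, the vitamin D dependent calcium-binding protein calbindin-D9k, averaged 5.88, 5.81 and 9.63. Both were also lower in ENDM1-negative cells, at 6.36 and 6.54. Cdx4, a homeobox factor of the posterior embryo, measured 3.45, 3.39 and 3.44 at day 0, 3.38, 3.10 and 3.22 at day 5 and 6.12, 6.43 and 6.13 in foregut. Its ENDM1-negative arrays were as high, at 6.31, 6.24 and 6.73. Of 40 Hox and Cdx genes 21 rose in foregut and 2 fell (median 0.41), 23 were higher in foregut than at day 5, and none was higher at day 5 than at day 0.

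**Figure D4:**
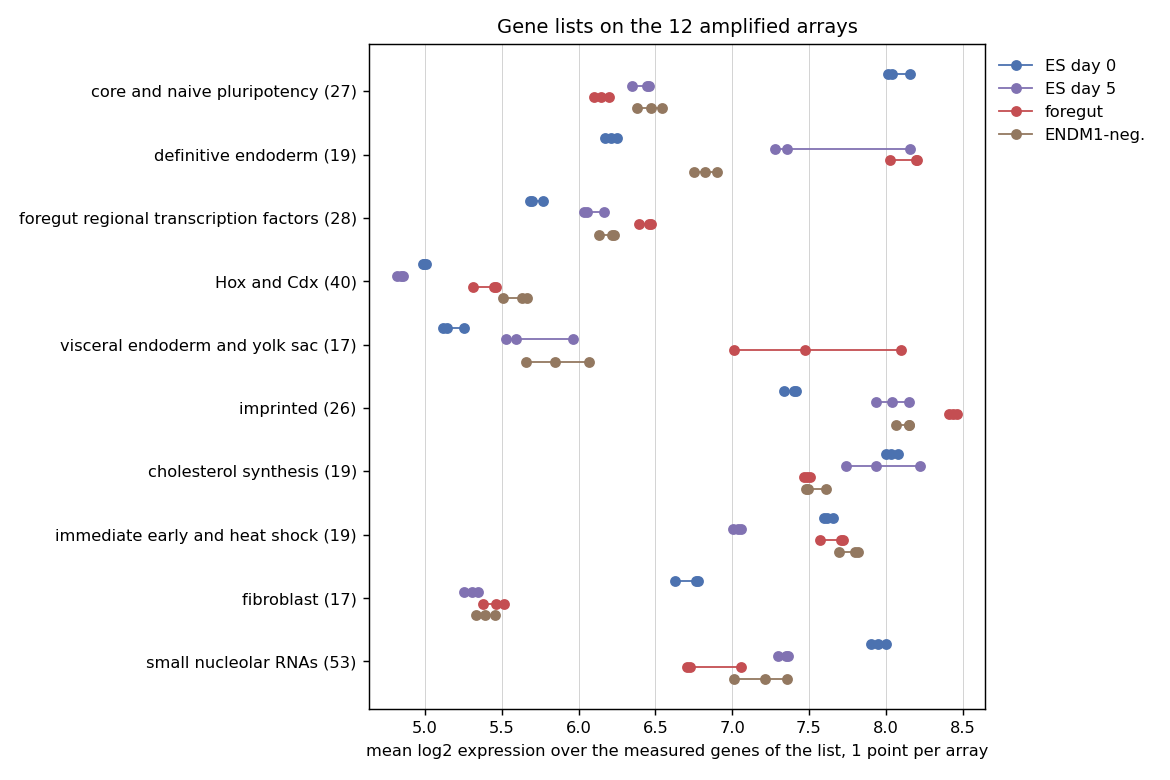
Mean log2 level of 10 gene lists on each amplified array, with 1 point per array and the 4 groups in separate positions. Visceral endoderm and yolk sac genes lie between 7.01 and 8.10 in foregut and below 6.1 elsewhere, definitive endoderm genes at day 5 reach the foregut range on 1 array (8.16) and lie at 7.28 and 7.36 on the others, and fibroblast markers are highest at day 0 (6.63 to 6.78).

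Other genes stood near the foregut level at day 5, though some were still called apart from it. Frzb, a secreted Wnt antagonist, averaged 4.05 at day 0, 7.74 at day 5 and 8.26 in foregut and rose by 4.21 ± 0.13 in foregut. With 87.6% of the distance covered, it was 0.52 higher in foregut than at day 5 (limma adjusted p = 0.0134). That call was lost without foregut replicate 3 or day 5 replicate 2. Spink1 stood at 11.88, 11.27 and 11.39 at day 5, with 94.7% of the distance covered, and was not called against foregut (adjusted p = 0.26) except without day 5 replicate 1 (limma adjusted p = 0.0461). Greb1l and Slc39a8, a zinc importer, had covered 99.3% and 104%. Keratins of simple epithelia moved with them. Krt8 measured 8.54, 8.66 and 8.80 at day 0, 11.86, 11.50 and 11.58 at day 5 and 12.02, 11.90 and 11.97 in foregut. It was 0.32 higher in foregut than at day 5 (limma adjusted p = 0.0422), a call lost without any 1 foregut array or day 5 replicate 2 or 3. Krt18, its partner in intermediate filaments, rose by 3.25 ± 0.10 in foregut. Of 26 epithelial junction and keratin genes 18 rose and 1 fell (median 0.60), and 14 were higher in foregut than at day 5. Basement membrane genes differed from these, with 10 of 18 higher and 2 lower in foregut than at day 0 (median 0.30, and 8 higher on a common median), none higher at day 5 than at day 0, and 11 higher in foregut than at day 5. Lama1, the laminin chain of early basement membranes, averaged 6.35 at day 0, 5.67 at day 5 and 7.61 in foregut.

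Of 27 core and naive pluripotency genes 22 fell in foregut and 2 rose (median -1.48). Against day 5, 7 of the 27 were higher in foregut and 6 lower. The 2 that rose were Tbx3 and Lin28a, by 1.07 and 0.57. Of 15 Dppa and other stem cell genes 13 fell and none rose (median -3.20), and 2 were higher and 4 lower in foregut than at day 5. Zfp42 measured 8.79, 8.81 and 8.63 at day 0, 4.16, 3.61 and 3.87 at day 5 and 4.12, 4.10 and 3.62 in foregut, and 101% of its distance was covered. Dppa5a stood at 6.04, 7.13 and 6.92 at day 5 and was not called against foregut (adjusted p = 0.0521) except without day 5 replicate 1 (limma adjusted p = 0.00324).

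Nanog, Pou5f1 and Tdgf1 remained well above foregut at day 5. Nanog, a homeobox factor of the pluripotency core, measured 10.97, 10.71 and 10.76 at day 0, 7.80, 9.32 and 9.29 at day 5 and 6.68, 6.39 and 6.86 in foregut. It fell by 4.17 ± 0.32 in foregut (limma adjusted p = 5.68e-07), with 48.2% covered, and was lower in foregut than at day 5 by 2.16 (limma adjusted p = 0.000419). Pou5f1 stood at 7.72, 8.92 and 8.82 at day 5 and had covered 39.3%, and it was also lower in foregut than in ENDM1-negative cells, by 2.25 (limma adjusted p = 0.00106). Tdgf1 stood at 10.99, 11.98 and 11.95 at day 5, with 9.96% covered, and was lower in foregut than at day 5 by 6.25 (limma adjusted p = 6.48e-07). In all of these genes day 5 replicate 1 lay closest to foregut. On the unamplified arrays the day 5 fall was 1.78 for Pou5f1, 2.07 for Nanog and, not called, 1.39 for Tdgf1 (limma adjusted p = 0.104). Kcnma1 averaged 8.37 at day 5 and had covered 34.1%. Sox2 and Kit served in sorting the ES cells and Epcam in sorting the embryo cells, and their levels are no result. The part of the Sox2 gates in the day 5 values of other pluripotency genes was not tested.

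Germline and 2-cell genes fell as a group, with 11 of 16 lower in foregut and none higher (median -1.01). Sycp3, a component of the meiotic chromosome axis, fell by 3.78 with 101% covered, while Sycp1, its synaptonemal complex partner, fell by 2.30 with 7.5% covered. Rnf17, a tudor domain protein of male germ cells, fell by 3.84. Of 11 DNA methylation genes 3 rose and 4 fell (median 0.03), where 18.2% of all genes rose and 14.2% fell. Dnmt3l, the cofactor of de novo methylation, fell by 3.79 with 105% covered, Tet1, a 5-methylcytosine dioxygenase, fell by 2.22 with 91.3% covered, and Tet3 of the same family rose by 1.18.

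Of 26 imprinted genes 15 rose and 3 fell in foregut (median 0.73), and 7 rose at least 4-fold. Igf2, the paternally expressed growth factor, measured 6.37, 6.25 and 6.42 at day 0, 9.03, 8.92 and 9.12 at day 5 and 9.38, 9.12 and 9.31 in foregut. It rose by 2.93 ± 0.09, and day 5 cells had covered 91.6% of the distance. Peg3, a paternally expressed zinc finger gene, rose by 2.97 ± 0.08 with 95.8% covered. Cdkn1c, the maternally expressed cyclin-dependent kinase inhibitor p57, measured 6.65, 6.85 and 6.93 at day 0, 7.94, 7.86 and 7.83 at day 5 and 9.57, 9.76 and 9.34 in foregut. It rose by 2.75 ± 0.12 (limma adjusted p = 2.96e-09) with 38.8% covered, and none of the 3 groups overlapped. Among 6 X inactivation and Y-linked genes 2 rose and 3 fell (median -0.18). Xist, the RNA that coats the inactive X chromosome, averaged 7.13 at day 0, 4.96 at day 5, 9.32 in foregut and 9.04 in ENDM1-negative cells. Kdm5d, a Y-linked demethylase, averaged 4.85, 4.28, 7.36 and 7.12, so both genes were highest in the embryo groups. Both are among the 143 genes higher in foregut, with -98.7% of the distance covered for Xist and -22.7% for Kdm5d. The part that the sex of the cells and embryos played in these values was not tested.

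Signalling genes were counted in the same way, where 18.2% of all genes rose and 14.2% fell in foregut. Of 22 BMP and Nodal genes 14 rose and 5 fell in foregut (median 0.49). Id2, a BMP target and inhibitor of helix-loop-helix factors, averaged 6.42 at day 0, 8.36 at day 5 and 9.74 in foregut, and Bmp5, a ligand, rose by 3.27 with 85.3% covered. Bmp2, a ligand of the same family, measured 4.99, 5.35 and 5.02 at day 0, 9.68, 9.09 and 9.27 at day 5 and 7.47, 7.27 and 7.06 in foregut, so that day 5 lay above foregut in every array and 197% was covered. Lefty1, a Nodal inhibitor, averaged 7.49, 7.90 and 5.43 and fell by 2.06 ± 0.23, and Nodal itself fell by 1.19 with 44.7% covered. Inhba, an activin subunit, fell by 1.72. Of 24 Wnt genes and antagonists 10 rose and 1 fell (median 0.31), among them Lgr5, an R-spondin receptor, by 1.64, and Dkk1, a secreted antagonist, by 1.52. Day 5 means of both lay above foregut, with 164% and 142% covered. For Dkk1 the difference between foregut and day 5 (limma adjusted p = 0.0234) was not called without day 5 replicate 1. It was also lost without foregut replicate 1 or 3. Of 13 hedgehog genes 6 rose and 2 fell (median 0.23). Ptch1, the receptor and target of the pathway, rose by 1.46 with 106% covered, and Gli3, a transcription factor of the pathway, rose by 1.26 with 8.84% covered.

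Of 19 FGF genes 5 rose and 4 fell (median 0.17), where 18.2% of all genes rose and 14.2% fell. Fgfr2, the receptor of epithelia, rose by 1.98 ± 0.19, and Fgf5, a ligand of the primed epiblast, fell by 1.02. Of 15 retinoic acid genes 6 rose and none fell (median 0.25). Rarb, a receptor and direct target of retinoic acid, rose by 3.50 ± 0.24 with 64.8% covered. Cyp26a1, the enzyme that degrades retinoic acid, rose by 1.62, and day 5 cells lay above foregut by 1.57 with 196% covered.

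Cholesterol synthesis genes were lower in foregut and had hardly moved at day 5. Of 19 measured, 13 fell in foregut and 1 rose (median -0.51), while 3 fell and 1 rose at day 5, and 11 were lower in foregut than at day 5. Over all genes, 18.2% rose and 14.2% fell in foregut, and 13% rose and 13.8% fell at day 5. Against day 5, 14.7% of all genes were higher and 9.42% lower in foregut. Msmo1, a sterol oxidase of the pathway, measured 9.13, 9.25 and 9.04 at day 0, 9.40, 8.72 and 8.96 at day 5 and 7.45, 7.52 and 7.40 in foregut, with ENDM1-negative arrays at 7.40, 7.75 and 7.33. Both culture groups lay above both embryo groups, the foregut difference from day 0 was -1.69 ± 0.15 (limma adjusted p = 2.59e-06), and 7.18% was covered. Idi1, the isomerase of the isoprenoid branch, fell by 1.40. Glycolysis genes had no common direction, with 8 of 19 higher and 4 lower (median -0.02). Slc2a1, the glucose transporter GLUT1, rose by 1.95 ± 0.10 and Pfkp, a phosphofructokinase, fell by 2.10. Cell cycle and replication genes gave 4 higher and 9 lower of 28 (median -0.002), but 17 of the 28 were lower at day 5 than at day 0 and 14 were higher in foregut than at day 5. Top2a, a topoisomerase of dividing cells, fell by 0.54 in foregut, and Ccnd2, a cyclin, rose by 1.56. Immediate early and heat shock genes, which can respond to tissue handling, gave 3 higher and 3 lower of 19 (median 0.04, and 1 higher on a common median), while 11 were lower at day 5 than at day 0 and 12 higher in foregut than at day 5.

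Markers of other cell types were counted on the same arrays. Over all genes, 18.2% were higher and 14.2% lower in foregut than at day 0, and several of the marker counts lie near these shares. Of 17 fibroblast markers 11 were lower in foregut than at day 0 and none higher (median -0.95), and their mean level per array was 6.63 to 6.78 at day 0, 5.25 to 5.35 at day 5 and 5.38 to 5.51 in foregut. S100a4, a calcium-binding protein of mesenchymal cells, averaged 8.84 at day 0, 4.80 at day 5 and 4.88 in foregut, and fell by 3.96 ± 0.14 in foregut. Mgp, a matrix protein, fell by 3.86 ± 0.18 and Lox, the collagen crosslinking enzyme, by 2.48. The part of fibroblasts in the day 0 values was not tested. Of 12 blood markers 4 were higher and none lower (median 0.09). Hbb-bh1, an embryonic globin, measured 3.87, 3.86 and 3.89 at day 0 and 7.84, 8.19 and 8.20 in foregut, with ENDM1-negative arrays at 7.06, 7.55 and 7.82, and Gata1, Klf1 and Alas2 were not called. Endothelial markers gave 4 higher and 2 lower of 15 (median 0.18), and 9 were lower in foregut than in ENDM1-negative cells, where 4.43% of all genes were lower. Parietal endoderm markers gave 5 higher and 2 lower of 10 (median 0.48), notochord markers 3 higher of 7 (median 0.26), and mesoderm and heart markers 6 higher and 2 lower of 20 (median 0.14). Neural ectoderm markers gave 2 higher and 3 lower of 16 (median 0.01), surface ectoderm markers 3 and 3 of 12 (median 0.20) and trophoblast markers 2 higher of 8 (median 0.11).

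The array also carries probe sets for short RNA genes, which were chosen for description after their values were seen. Of 53 small nucleolar RNA genes 42 were lower in foregut than at day 0 and none higher, with a median difference of -1.16, and 20 were lower in foregut than at day 5. Within culture, where the kit was the same, 30 of the 53 were lower at day 5 than at day 0 on amplified arrays and 46 on unamplified arrays. Over all genes, 9.42% were lower in foregut than at day 5. At day 5, 13.8% of all genes were lower than at day 0 on amplified arrays and 19.7% on unamplified arrays. Of 297 microRNA genes 18 were higher and 23 lower, where 18.2% of all genes were higher and 14.2% lower. The extraction kits differ between embryo and culture cells, and kit and cell type cannot be told apart here. Among the microRNA genes that were lower, members of 2 clusters known from pluripotent cells were present. Some mature sequences of these clusters, chosen because they share seeds, are printed with the seed (bases 2 to 8) in capitals. Other mature forms are left out, among them miR-302c-3p and miR-19b-3p, whose seeds (AGUGCUU and GUGCAAA) differ from those printed. No sequence of miR-302a-3p was in the reference used. Sequences are those of RefSeq on GRCm38.p6, written 5′ to 3′.
miR-363-3p: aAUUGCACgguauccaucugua
miR-367-3p: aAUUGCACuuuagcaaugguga
miR-92a-3p: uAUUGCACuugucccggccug
miR-302b-3p: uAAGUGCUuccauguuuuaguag
miR-302d-3p: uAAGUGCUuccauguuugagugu
miR-106a-5p: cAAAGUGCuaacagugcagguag
miR-20b-5p: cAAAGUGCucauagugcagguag
The first 3 share the seed AUUGCAC, miR-302b and miR-302d share AAGUGCU, and miR-106a and miR-20b share AAAGUGC, which overlaps AAGUGCU with a shift of a base. Mir363 lies in a cluster with Mir106a on chromosome X and Mir367 in a cluster with Mir302a on chromosome 3, and the probe sets report the hairpin genes and not the mature forms. Mir363 measured 8.19, 8.59 and 8.22 at day 0, 7.08, 9.23 and 8.69 at day 5 and 2.64, 3.36 and 3.62 in foregut, and fell by 5.13 ± 0.46 in foregut (limma adjusted p = 2.33e-06). All 5 measured genes of its cluster were lower in foregut, the others by 0.53 to 0.98. Those others averaged only 3.98 to 4.39 at day 0 and 3.20 to 3.54 in foregut, so their falls lie at low levels. The mean over all 297 microRNA genes was 4.53 to 4.56 per array at day 0 and 4.44 to 4.49 in foregut. On unamplified arrays, whose levels are not compared with amplified ones, Mir363 averaged 4.67 at day 0 and 4.10 at day 5. The other measured genes of its cluster averaged 3.74 to 4.65 there at day 0. In the cluster on chromosome 3, 3 of 5 were lower, with Mir367 down by 1.54 ± 0.33 (limma adjusted p = 0.00259) and Mir302a by 1.04 ± 0.16, while Mir302b and Mir302c were not called. Means of these 5 genes on amplified arrays were 3.90 to 5.09 at day 0 and 3.03 to 4.56 in foregut. At day 5, Mir302a, Mir302c and Mir302d were above day 0, away from foregut, by 1.66, 1.43 and 0.77 (limma adjusted p = 9.3e-06, 0.0076 and 0.0042). On unamplified arrays the same differences were 0.86, 1.04 and 1.01 and were not called.

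Promoter sequences of the genes at least 4-fold apart were searched for motifs of factors known to act in pluripotent or endoderm cells. Windows ran from 250 bases before to 50 after each gene's start in RefSeq on GRCm38.p6, and both strands were searched. The octamer bound by Pou5f1 was searched as ATTTGCAT. A forkhead motif, as bound by Foxa2, was searched as TGTTTAC. A motif of the GATA factors was searched as AGATAA. Part of the motif of HNF1 factors was searched as GTTAAT. Promoters were found for 112 of the 143 higher genes and 109 of the 145 lower genes, 149 and 140 windows, and all genes of the table gave 19177. The forkhead motif was in 8 of the 149 windows of the higher genes (5.37%), 2 of the 140 of the lower genes (1.43%) and 3.01% of all windows. The partial HNF1 motif was in 10.7%, 7.14% and 6.04%, the GATA motif in 8.05%, 9.29% and 9.25%, and the octamer in 2.01%, 2.86% and 1.6% (3, 4 and 306 windows). Overlapping windows of a gene can count the same match more than once, as for the HNF1 motif of Mest, Prxl2a and Nanog. These shares are descriptions, and a match is not a bound site. The 250 bases before the start are printed for 3 genes described above, with motif matches in capitals: Nepn (chr10:52391358-52391607, plus strand), with a forkhead and a GATA match, Afp (chr5:90490464-90490713, plus strand), with a partial HNF1 motif, and Zfp42 (chr8:43307010-43307259, minus strand), with an octamer.
Nepn: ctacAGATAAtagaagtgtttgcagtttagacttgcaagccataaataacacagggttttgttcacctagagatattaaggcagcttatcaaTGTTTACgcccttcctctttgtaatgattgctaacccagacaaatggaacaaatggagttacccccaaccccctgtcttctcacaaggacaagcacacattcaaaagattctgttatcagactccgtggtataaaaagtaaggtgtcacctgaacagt
Afp: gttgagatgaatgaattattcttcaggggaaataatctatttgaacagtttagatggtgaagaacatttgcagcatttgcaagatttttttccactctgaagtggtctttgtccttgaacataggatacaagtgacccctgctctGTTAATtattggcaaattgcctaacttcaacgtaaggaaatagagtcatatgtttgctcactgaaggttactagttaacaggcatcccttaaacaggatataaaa
Zfp42: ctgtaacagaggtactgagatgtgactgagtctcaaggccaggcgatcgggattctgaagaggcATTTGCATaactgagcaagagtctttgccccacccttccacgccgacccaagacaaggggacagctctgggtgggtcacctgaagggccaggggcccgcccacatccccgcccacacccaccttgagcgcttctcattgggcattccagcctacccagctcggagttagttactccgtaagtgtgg
The forkhead match before Nepn lies at -158 to -152 from the start and the GATA match at -246 to -241. The HNF1 match before Afp lies at -105 to -100, and the octamer before Zfp42 at -186 to -179.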

How the data were processed

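Expression was measured on 30 Affymetrix Mouse Gene 1.0 ST arrays. RMA is the method that the submitters' processing notes name, and the authors deposited its log2 values, 1 for each probe set. The version of RMA is not given in the sources used here, nor whether both labellings were normalized jointly, so levels were compared only within each labelling. Arrays have no read depth, and their number limits the precision. Where nothing says that replicates came from separate cultures or litters, p-values measure only the spread between these samples.

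Of 35556 probe sets, 21789 had a single gene in the platform annotation, 1621 had several and 12146 were not listed; the last 2 kinds were left out. For 999 genes with several probe sets the one with the highest mean was kept, which gave 19938 genes. limma 3.58.1 in R 4.3.3 (with the package data.table, version 1.17.8) was fitted with a mean per group to the 12 amplified arrays (8 residual degrees of freedom) and separately to the 18 unamplified arrays (12 residual degrees of freedom), with two-sided moderated tests and Benjamini-Hochberg adjustment over all genes. The fit was tested on simulated data. Same-numbered replicates of foregut and day 0 did not deviate together (correlations of -0.0693, -0.0518 and 0.00506). Those of foregut and ENDM1-negative cells correlated at 0.0238, 0.0517 and 0.0867, beside a mean of -0.027 for unlike numbers. No block was used, and counts with a replicate block are given below.

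The 32 gene lists (22 of gene groups, 10 of cell type markers), the arrays compared and the rules were chosen with earlier results of these data known. Named genes were the 12 largest rises and 12 largest falls without overlap, per list the 2 called genes that rose most and the 2 that fell most, a set of endoderm and pluripotency regulators, and up to 8 genes for each kind of day 5 position relative to foregut. Provisional, microRNA and small nucleolar RNA symbols were left out of all but the list and regulator parts; members of the short RNA groups were named after their values were seen. Lists were described by counts and medians and not tested as sets. Alternatives were another scaling, a filter on dim genes, another probe set rule, other spread estimates, all 30 arrays in 1 fit, a replicate block and each array left out.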

Additional observations from a re-analysis of the deposited data

How the results depend on the processing

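Leaving out 1 array at a time gave 5394 to 6092 calls between foregut and day 0 in place of 6474 (2946 to 3525 higher, 2421 to 2567 lower, 280 to 306 at least 4-fold), 3381 to 4928 between foregut and day 5, 4501 to 5001 between day 5 and day 0 amplified, 6694 to 7325 unamplified, and 985 to 1174 between foregut and ENDM1-negative cells, with 985 without foregut replicate 1. The median distance covered ran from 55.8% (without day 5 replicate 1) to 70.9% for higher genes and from 82.3% to 88.3% for lower genes. The latter moved to 71.4% with dim genes left out, 77.6% from the unamplified response and 69.7% with a 2-fold in place of a 4-fold limit. Fitting all 30 arrays together gave 2467 calls between foregut and ENDM1-negative cells in place of 1623. With a replicate block the counts were 6294 (foregut and day 0), 5145 (day 5 and day 0), 4554 (foregut and day 5), 1471 (foregut and ENDM1-negative) and 7661 (unamplified). The share of calls higher in foregut than at day 0 was 56.2%, 45.4% on a common median and 49.8% after a further quantile normalization; in the same order it was 61%, 45.1% and 51.5% against day 5, and 45.6%, 35.6% and 51.1% against ENDM1-negative cells. The cause of these shifts was not tested. Of the 163 named genes called between foregut and day 0, 147 were called under all 15 alternatives, 16 were lost under at least 1 (Hnf4a, Nkx2-3, Nkx2-5 and Kit among them) and 0 reversed.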

Other observations

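Some genes at day 5 lay outside the range between day 0 cells and foregut, on amplified arrays. Above both were Pga5, a pepsinogen gene, with means of 5.50 at day 0, 9.09 at day 5 and 5.22 in foregut, and Tph1, an enzyme of serotonin synthesis, with 4.69, 8.67 and 5.46. Samd3 averaged 4.49, 8.50 and 5.22, and Alx1, a homeobox factor of craniofacial mesenchyme, 5.12, 8.31 and 5.16. Lhx1 read 8.65, 7.51 and 7.63 on the day 5 arrays, 4.67 to 4.96 at day 0 and 4.89 to 4.95 in foregut, with no overlap between day 5 and the others.

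Below both was Mme, the membrane peptidase neprilysin, which read 8.60, 8.20 and 8.43 at day 0, 5.47, 6.36 and 6.16 at day 5 and 8.32, 8.42 and 8.45 in foregut. Crabp1, a carrier of retinoic acid, averaged 9.76, 7.49 and 9.44, Apoa2, an apolipoprotein, 8.78, 6.92 and 9.71, and Fosb, an immediate early factor, 7.71, 5.58 and 7.44.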
